A study of Mus musculus with 15 samples.

Results

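Microtubules are built from dimers of α- and β-tubulin, and 9 tubulin genes, 4 for α-tubulin (Tuba1a, Tuba1b, Tuba1c and Tuba4a) and 5 for β-tubulin (Tubb2a, Tubb2b, Tubb4b, Tubb5 and Tubb6), were followed in the mouse kidney. They were chosen from a list of gene names with earlier results of these samples known, with Tuba1c as the starting point, and are 9 of the 13933 genes that had an annotated transcript in every mouse. All 9 passed the filter that kept 12366 genes for testing, at least 1 FPKM in at least 5 mice. FPKM is a level corrected for transcript length and for library size, and the values of a gene's transcripts were summed. RNA was taken from the kidneys of 15 young adult male wild-type C57BL/6 mice in 3 groups of 5. The Control mice received saline for 28 days, the Ang II mice received angiotensin II at 500 ng/kg/min for 28 days, and the Ang II + QDG mice received the same infusion with Qingda granule (QDG), a herbal formula, at 1.145 g/kg/day. QDG was given by gavage, and the mice of the other groups were given the same volume of water in its place. Each kidney was from a mouse of its own, so the spread is between animals. In whole-kidney RNA, fewer cells of a type and less RNA per cell cannot be told apart.

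The microtubule carries transport inside the cell, forms the spindle and supports the cilium of the tubule cell. Vertebrates make several α- and β-tubulins from separate genes, and these isotypes differ mainly in the acidic tail at the end of the protein, where enzymes add or remove glutamate and tyrosine residues. Cells hold the level of tubulin mRNA in step with the need for it: when free dimers are in excess, the factor TTC5 recognises the first residues of tubulin as it leaves the ribosome and, through SCAPER and the CCR4-NOT subunit CNOT11, the mRNA being translated is degraded.

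The start of the coding sequence is shown for 8 members, because it encodes the residues that this control reads. The first 4 codons are in capitals. The transcripts are those of GENCODE release M21 on the build GRCm38, written 5′ to 3′.
Tuba1a: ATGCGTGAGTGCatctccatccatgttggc
Tuba1b: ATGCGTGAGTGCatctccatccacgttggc
Tuba1c: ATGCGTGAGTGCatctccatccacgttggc
Tuba4a: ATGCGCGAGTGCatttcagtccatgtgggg
Tubb2a: ATGCGCGAGATCgtgcacatccaggcgggc
Tubb2b: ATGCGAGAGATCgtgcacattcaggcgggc
Tubb4b: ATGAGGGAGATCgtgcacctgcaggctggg
Tubb5: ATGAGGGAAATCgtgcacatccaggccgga
Tuba1a, Tuba1b and Tuba1c had the same 12 bases, ATGCGTGAGTGC, and each of the other 5 differed from them and from one another. The last of the 4 codons was TGC in the α-tubulin genes and ATC in the β-tubulin genes.

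The last 60 coding bases, which encode the acidic tail, are shown for 6 members with the stop codon in capitals.
Tuba1c: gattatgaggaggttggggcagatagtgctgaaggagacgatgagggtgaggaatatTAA
Tuba4a: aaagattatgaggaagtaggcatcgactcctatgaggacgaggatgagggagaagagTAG
Tubb2a: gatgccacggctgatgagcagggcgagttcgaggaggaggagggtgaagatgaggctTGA
Tubb2b: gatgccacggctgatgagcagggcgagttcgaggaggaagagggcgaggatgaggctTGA
Tubb4b: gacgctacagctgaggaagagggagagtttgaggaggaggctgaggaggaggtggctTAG
Tubb5: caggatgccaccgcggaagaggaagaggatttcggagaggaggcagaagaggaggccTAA
Over the whole coding sequence, Tuba1b was identical to Tuba1c at 98.4% of the aligned bases and to Tuba1a at 98.3%. Tuba4a matched the other α-tubulin genes at 85.3% to 85.6%. Tubb2a and Tubb2b matched at 96.5%, the other pairs of β-tubulin genes at 80.7% to 84.8%, and an α- and a β-tubulin gene at 56.5% to 58.6%.

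Tuba1a, Tuba1b and Tuba1c lie on chromosome 15 of GRCm38, where the transcript of Tuba1a runs from 98949837 to 98953703 and that of Tuba1b from 98931425 to 98934565, both on the minus strand. The transcript of Tuba1c runs from 99029891 to 99038110 on the plus strand. Tubb2a (34074274 to 34078007) and Tubb2b (34126748 to 34130354) lie on the minus strand of chromosome 13. Tuba4a is on chromosome 1 (75214228 to 75219294, minus), Tubb4b on chromosome 2 (25222160 to 25224702, minus), Tubb5 on chromosome 17 (35833921 to 35838306, minus) and Tubb6 on chromosome 18 (67390717 to 67402749, plus). Each of these main transcripts has 4 exons.

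The libraries implied totals of 68922800 to 81329500 reads, and the highest correlation of a pair of mice over genes was 0.958 (Pearson's r of log2 values). Mitochondrial transcripts took 18.5% to 20.7% of the summed FPKM in Control, 15.4% to 16.0% in Ang II and 16.9% to 19.8% in Ang II + QDG. All 10 proximal tubule markers were found, at a summed 4609 to 5985 FPKM over the mice, as a kidney sample should show. Ren1, whose mRNA is known to fall under Ang II infusion, was at 33.2 ± 3.79 (Control) and 30.1 ± 8.97 FPKM (Ang II; log2 fold change −0.18, standard error 0.25, limma adjusted p = 0.718), so no fall was detectable and the group labels gained no check from it.

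The first comparison, Ang II vs. Control, asks which transcripts differ after 28 days of the infusion, and the second, Ang II + QDG vs. Ang II, which differ when QDG is added. In the first, the estimate was positive for 9 of 9 tubulins and the 5 Ang II mice lay above the 5 Control mice in Tuba1a, Tuba1c, Tubb2a, Tubb4b and Tubb6. In the second it was negative for 9 of 9, and the Ang II + QDG mice lay below the Ang II mice in 6, these 5 and Tuba4a. Over all 12366 genes, 64.8% were positive in the first and 46.3% in the second, and the 0.08 of Tubb5 in the first equalled the median of all genes. The sign for Ang II vs. Control was not the same under every scaling, since Tubb5 came to −0.01 after quantile normalization and 8 of 9 were then positive, also with median scaling. Both comparisons use the same Ang II mice, so they are not independent of each other. As the genes were chosen with these contrasts known, their values are given as a description, with no p.

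Tuba1c, a widely expressed α-tubulin, had 43.1, 42.5, 39.4, 40.9 and 37.0 FPKM in the Control mice, 52.8, 52.0, 54.3, 52.9 and 51.0 FPKM in the Ang II mice, and 37.2, 36.8, 41.2, 41.0 and 31.8 FPKM in the Ang II + QDG mice. The means were 40.6 ± 2.47 (Control), 52.6 ± 1.20 (Ang II) and 37.6 ± 3.83 FPKM (Ang II + QDG; mean ± SD, n = 5 each). The Ang II mice were above both other groups without overlap, and the other groups overlapped each other. The log2 fold change of FPKM + 1 was 0.37 (standard error 0.07) for Ang II vs. Control, −0.48 (0.07) for Ang II + QDG vs. Ang II and −0.11 (0.07) for Ang II + QDG vs. Control. With quantile normalization or median scaling the first of these was 0.28. The third was −0.05 without Ang II + QDG mouse 5 and −0.19 with median scaling.

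Tubb4b, the most abundant tubulin mRNA in these kidneys and a component of ciliary microtubules, had 121, 118, 119, 128 and 104 FPKM in the Control mice, 143, 170, 182, 166 and 152 FPKM in the Ang II mice, and 94.7, 93.8, 116, 108 and 92.8 FPKM in the Ang II + QDG mice. The Ang II mice were again above every other mouse. Its means were 118 ± 9.01 (Control), 163 ± 15.5 (Ang II) and 101 ± 10.5 FPKM (Ang II + QDG; mean ± SD, n = 5 each), and the log2 fold changes were 0.46 (standard error 0.08), −0.68 (0.08) and −0.22 (0.08) in the same order of comparisons. Tubb4b was therefore the member that added most FPKM to the total.

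Tubb2a, a β-tubulin best known from neurons, had 22.9, 25.8, 17.9, 24.6 and 17.0 FPKM in the Control mice, 35.1, 33.5, 30.4, 28.1 and 36.1 FPKM in the Ang II mice, and 16.5, 25.3, 16.4, 23.5 and 15.03 FPKM in the Ang II + QDG mice. No Ang II mouse overlapped either other group. The means were 21.7 ± 3.97 (Control), 32.7 ± 3.35 (Ang II) and 19.4 ± 4.70 FPKM (Ang II + QDG; mean ± SD, n = 5 each). The log2 fold changes were 0.58 (standard error 0.15), −0.75 (0.15) and −0.17 (0.15). Its neighbour and near copy Tubb2b, known for its part in cortical development, was at 7.50 ± 1.93 (Control), 10.9 ± 2.89 (Ang II) and 5.78 ± 1.68 FPKM (Ang II + QDG; mean ± SD, n = 5 each). Tubb2b overlapped between the groups in every comparison, with an Ang II range of 6.83 to 13.8 FPKM, with estimates of 0.48 (standard error 0.23) and −0.82 (0.23) on the log2 scale.

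Tubb6, the β-tubulin with the lowest level among the members, had 3.86, 4.05, 4.38, 4.95 and 3.97 FPKM in the Control mice, 7.14, 6.04, 5.96, 6.48 and 6.87 FPKM in the Ang II mice, and 5.41, 5.00, 5.36, 5.59 and 3.77 FPKM in the Ang II + QDG mice. The Ang II mice lay above both other groups, and 4 of the Ang II + QDG mice lay above the Control range while the other was below it. The means were 4.24 ± 0.440 (Control), 6.50 ± 0.514 (Ang II) and 5.03 ± 0.734 FPKM (Ang II + QDG; mean ± SD, n = 5 each). The log2 fold changes were 0.52 (standard error 0.10) for Ang II vs. Control, −0.32 (0.10) for Ang II + QDG vs. Ang II and 0.20 (0.10) for Ang II + QDG vs. Control, the last 0.11 with quantile normalization. Tubb5, a β-tubulin of dividing and many other cells, was at 19.4 ± 2.05 (Control), 20.6 ± 2.09 (Ang II) and 19.6 ± 2.53 FPKM (Ang II + QDG; mean ± SD, n = 5 each), and the groups overlapped in each comparison. Its log2 fold changes were 0.08 (0.10) and −0.08 (0.10), the smallest of the members in both. The first was 0.03 without Ang II mouse 1 and 0.13 without Control mouse 2, and the second was −0.12 without Ang II + QDG mouse 4 and −0.01 without Ang II + QDG mouse 1. With quantile normalization the second was −0.03.

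Tuba1a, the α-tubulin best known from developing neurons, had 16.9, 1.47, 14.8, 21.5 and 14.2 FPKM in the Control mice, 28.3, 25.5, 22.8, 25.8 and 23.1 FPKM in the Ang II mice, and 13.9, 16.8, 17.7, 22.2 and 18.5 FPKM in the Ang II + QDG mice. Control mouse 2 was lowest, with the next Control mouse at 14.2 FPKM, and the Ang II mice were above both other groups. The means were 13.8 ± 7.45 (Control), 25.1 ± 2.24 (Ang II) and 17.8 ± 2.99 FPKM (Ang II + QDG; mean ± SD, n = 5 each). The log2 fold change was 1.13 (standard error 0.45) for Ang II vs. Control and −0.48 (0.45) for Ang II + QDG vs. Ang II. Without Control mouse 2 the first was 0.56, so that mouse set much of the estimate. Tuba1a was the sole member with a fold change of at least 2, at 2.18 on the FPKM + 1 scale.

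Tuba1b, a housekeeping α-tubulin, had 51.5, 35.6, 41.5, 66.8 and 38.8 FPKM in the Control mice, 69.7, 66.8, 64.9, 62.6 and 33.7 FPKM in the Ang II mice, and 27.1, 48.1, 54.0, 76.4 and 45.4 FPKM in the Ang II + QDG mice. The groups overlapped widely, and Ang II mouse 5 and Ang II + QDG mouse 1 were lowest while Ang II + QDG mouse 4 was highest of all. The means were 46.8 ± 12.6 (Control), 59.5 ± 14.7 (Ang II) and 50.2 ± 17.7 FPKM (Ang II + QDG; mean ± SD, n = 5 each). The log2 fold changes were 0.33 (standard error 0.26) and −0.27 (0.26), and the first became 0.52 without Ang II mouse 5. The second became −0.46 without Ang II mouse 5 and −0.07 without Ang II + QDG mouse 1. Tuba4a, an α-tubulin whose gene does not encode the terminal tyrosine, was at 35.4 ± 4.57 (Control), 44.7 ± 8.26 (Ang II) and 31.8 ± 3.52 FPKM (Ang II + QDG; mean ± SD, n = 5 each). The Ang II + QDG mice (29.5 to 37.9 FPKM) lay below the Ang II mice (38.3 to 57.9 FPKM), and the Control mice (30.7 to 42.9 FPKM) overlapped both. Its log2 fold changes were 0.32 (0.12) and −0.47 (0.12), and without Ang II mouse 5 they were 0.22 and −0.37.

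**Figure D1:**
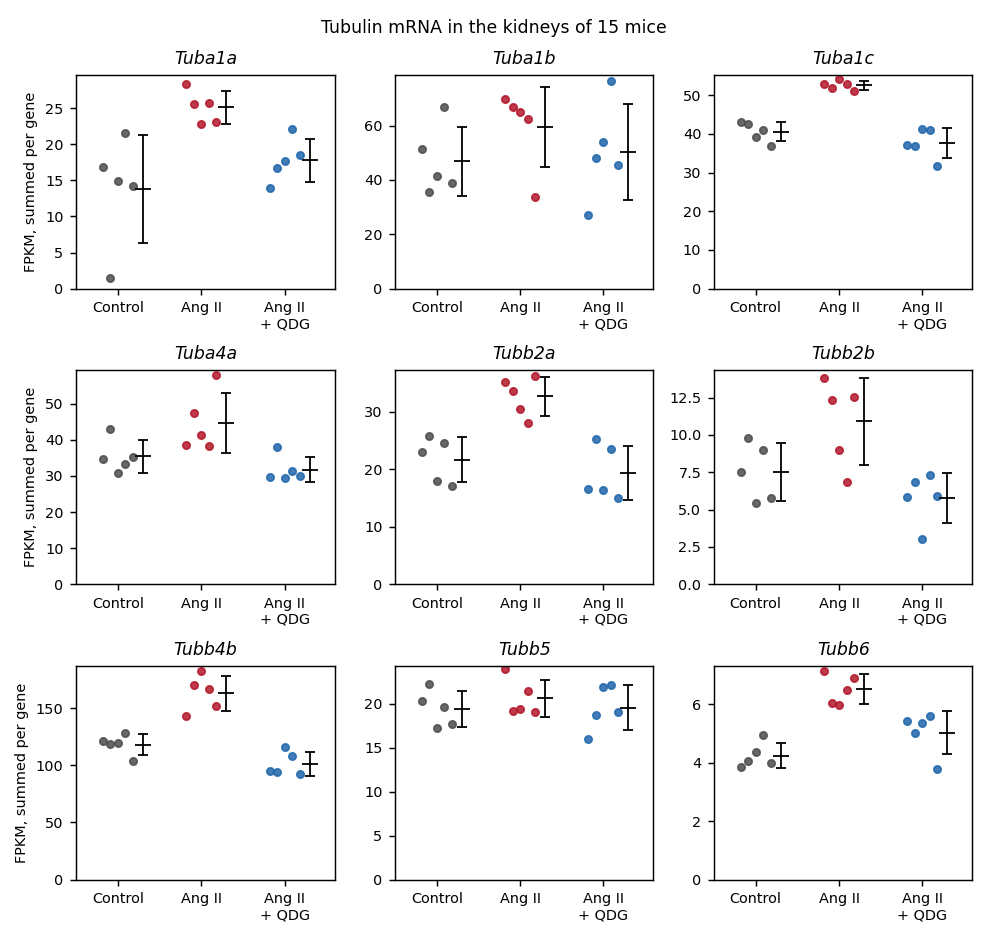
FPKM summed per gene (y axis, from 0, with a scale of its own in each panel) in each of the 5 mice of the 3 groups, with the mean and SD beside the points. The Ang II mice stand above both other groups in Tuba1a, Tuba1c, Tubb2a, Tubb4b and Tubb6, and 1 Control mouse is at 1.47 FPKM in Tuba1a.

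In Ang II vs. Control, limma called 4 of the 9 members at an adjusted p under 0.05 (Tuba1c, Tubb2a, Tubb4b and Tubb6, all higher), where 4.95% of all 12366 genes were called higher. In 5 of 9 the Ang II mice lay above the Control mice, against 6.49% of all genes. In Ang II + QDG vs. Ang II it called 3 (Tuba1c, Tubb2a and Tubb4b, all lower), where 1.29% of all genes were called lower, and the groups did not overlap in 6 of 9, against 3.44%. Because these contrasts chose the members, nothing is read from the shares. The median log2 fold change of the members was 0.46 in the first and −0.48 in the second, beside 0.08 and −0.02 over all genes. When 1 mouse was left out at a time, 3 to 5 members were called in the first comparison and 2 to 3 in the second. In Ang II + QDG vs. Control, 4 members were positive and 5 negative, where 62.5% of all genes were positive, with values from −0.34 for Tubb2b to 0.64 for Tuba1a, and all 9 overlapped between the groups, where 2.78% of all genes lay wholly higher and 0.857% wholly lower. Both ends of that range moved with 1 mouse. Tuba1a was 0.08 without Control mouse 2 and Tubb2b was −0.16 without Ang II + QDG mouse 3. Of the values closer to 0, Tubb2a (−0.17) was −0.09 without Ang II + QDG mouse 5 and −0.27 without Ang II + QDG mouse 2, and Tuba4a (−0.15) was −0.08 without Control mouse 2 and −0.23 with median scaling. Signs changed for Tuba1b (0.06), at −0.11 without Ang II + QDG mouse 4 and 0.26 without mouse 1 of that group, and for Tubb5 (0.01), at −0.04 and 0.07 without the same mice. With median scaling they were −0.02 and −0.07, and with quantile normalization Tubb5 was −0.04. The median there was −0.11, beside 0.06 over all genes. Mitochondrial transcripts took the smallest share in the Ang II mice, and with FPKM rescaled to a total without them the medians were 0.44 and −0.46 and 4 and 3 members were called. The count of 4 for Ang II vs. Control was 3 with quantile normalization, median scaling or the most abundant transcript. The count of 3 for Ang II + QDG vs. Ang II was 2 with the compared groups alone, and 4 with the filter at 5 FPKM or the most abundant transcript.

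**Figure D2:**
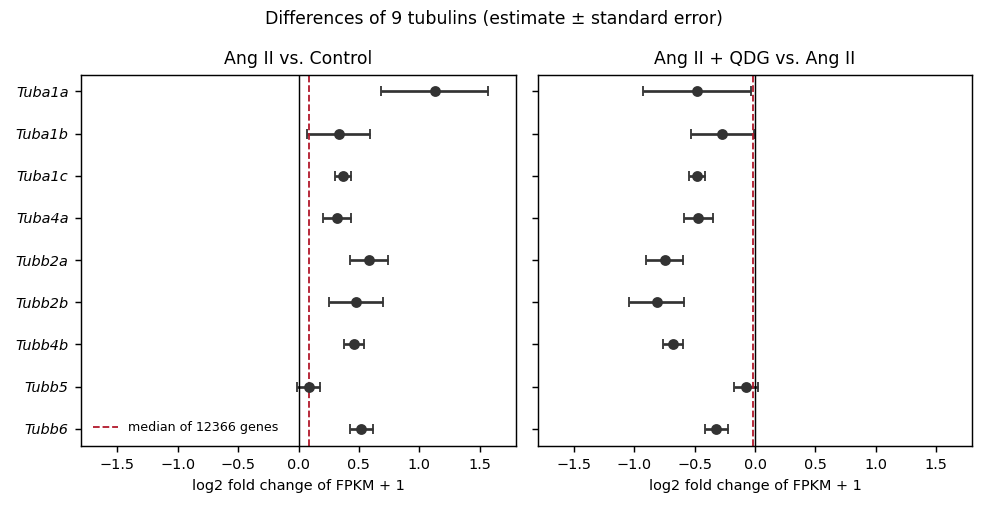
Log2 fold change of FPKM + 1 with its standard error (x axis) for the 9 tubulins for Ang II vs. Control (left panel) and for Ang II + QDG vs. Ang II in the right panel, where the dashed line is the median of 12366 genes. All 9 points lie right of 0 on the left, except that Tubb5 falls to −0.01 with quantile normalization, and left of 0 on the right, from −0.08 to −0.82.

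Summed over the 9 genes, the tubulin level was 273 to 349 FPKM in the Control mice, 392 to 433 FPKM in the Ang II mice and 247 to 338 FPKM in the Ang II + QDG mice. The means were 307 ± 29.2, 415 ± 16.9 and 288 ± 36.1 FPKM (SD, n = 5). The α sum was 137 ± 17.3, 182 ± 10.3 and 137 ± 23.2 FPKM, and the β sum 171 ± 15.2, 233 ± 10.3 and 151 ± 13.9 FPKM. Every Ang II mouse was above every Control mouse in both sums, and above every Ang II + QDG mouse in the β sum. The ratio of the β sum to the α sum was 1.26 ± 0.131 (Control), 1.29 ± 0.0749 (Ang II) and 1.11 ± 0.111 (Ang II + QDG), and the mice of the 3 groups overlapped in it. Tubb4b made up 69.2% ± 2.52 (Control), 69.6% ± 3.99 (Ang II) and 67.1% ± 3.34 (Ang II + QDG) of the β sum. Tubb5 took 11.4% ± 0.850, 8.87% ± 1.20 and 12.9% ± 0.922 of it, and these shares of single mice ranged from 10.5% to 12.4% in Control and from 7.85% to 10.7% in Ang II, with 11.6% to 13.9% in Ang II + QDG. The Ang II + QDG mice lay wholly above the Ang II mice, and the Control mice overlapped both.

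**Figure D3:**
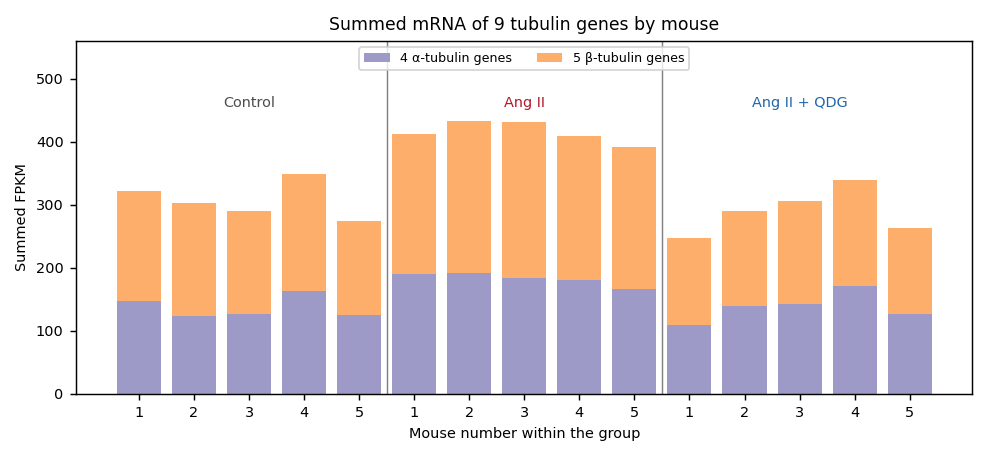
Summed FPKM of the 4 α-tubulin genes (lower part of each bar) and the 5 β-tubulin genes (upper part) in each of the 15 mice, numbered within their group. The Ang II bars end between 392 and 433 FPKM, above the Control bars (273 to 349) and the Ang II + QDG bars (247 to 338).

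By mean FPKM in Control, which is corrected for length, the order was Tubb4b, Tuba1b, Tuba1c, Tuba4a, Tubb2a, Tubb5, Tuba1a, Tubb2b and Tubb6. Tubb4b exceeded Tuba1b, and Tuba4a exceeded Tubb2a, in 15 of 15 mice. Tuba1b was above Tuba1c, Tuba1c above Tuba4a, and Tubb2a above Tubb5, in 12 of 15, so these neighbours changed places in some mice. Tubb5 was above Tuba1a in 4 of 5 Control mice, 0 of 5 Ang II mice and 4 of 5 Ang II + QDG mice. Tuba1a was above Tubb2b, and Tubb2b above Tubb6, in 14 of 15.

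Of the 24 annotated transcripts of the 9 genes, 15 were in every file. For 6 members the sum was 1 transcript. The second transcript of Tuba1c, Tuba1c-202, is annotated as a retained intron and was at 0.379 ± 0.279 (Control), 0.943 ± 0.150 (Ang II) and 0.434 ± 0.168 FPKM (Ang II + QDG), which stood on 8 to 71 reads. It added little to the sum, because the coding transcript Tuba1c-201 was at 40.2 ± 2.65, 51.7 ± 1.18 and 37.2 ± 3.73 FPKM. Tuba4a was spread over 5 transcripts. The main one, Tuba4a-202, was at 25.5 ± 2.49 (Control), 29.3 ± 2.96 (Ang II) and 19.7 ± 3.44 FPKM (Ang II + QDG), and Tuba4a-201 ranged from 0.129 to 8.39 FPKM within the Ang II group alone. With the most abundant transcript in place of the sum, the log2 fold change of Tuba4a for Ang II + QDG vs. Control was −0.36 in place of −0.15, and that for Ang II vs. Control 0.19 in place of 0.32.

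How far reads can be assigned to 1 tubulin depends on shared sequence. Over stretches of 100 bases, on either strand, 73.0% of Tuba1b, 65.8% of Tuba1a and 53.4% of Tuba1c also occurred in a transcript of another gene. For Tuba1b 48.6% occurred in Tuba1c, for Tuba1c 42.4% in Tuba1b and 31.5% in Tuba1a, and for Tuba1a 34.9% in Tuba1c. The share was 36.9% for Tubb2a, nearly all with Tubb2b (35.9%), and 27.7% for Tubb2b. For Tubb4b it was 30.6%, with 27.4% in the pseudogene Tubb4b-ps1, and for Tubb5 and Tubb6 it was 0. Tuba4a shared 46.7% with Stk16, a kinase gene that overlaps it on the opposite strand, and Stk16 was at 24.1 ± 8.37 (Control), 39.0 ± 11.0 (Ang II) and 33.0 ± 3.18 FPKM (Ang II + QDG). Whether the counting used the strand is not given in the sources used here, and without it reads of that overlap cannot be told apart.

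The SD between mice, as a percent of the mean, is given here beside the share of shared sequence. For Tuba1a, 65.8% shared, it was 54.0% (Control), 8.93% (Ang II) and 16.8% (Ang II + QDG), with Control mouse 2 at 1.47 FPKM. For Tuba1b, 73.0% shared, it was 27.0%, 24.6% and 35.3%, and for Tubb2b, 27.7% shared, it was 25.7%, 26.5% and 29.1%. For Tuba1c, 53.4% shared, it was 6.08%, 2.29% and 10.2%. Of the members without shared stretches, Tubb6 was separated between the groups in both comparisons and Tubb5 overlapped in both. The near copies can also be taken as 1 quantity. Tuba1a, Tuba1b and Tuba1c together were at 101 ± 19.5 (Control), 137 ± 16.9 (Ang II) and 106 ± 22.7 FPKM (Ang II + QDG), and Ang II mice (108 to 151 FPKM) overlapped the Control mice (79.6 to 129 FPKM). Tubb2a and Tubb2b together were at 29.2 ± 5.86, 43.6 ± 6.18 and 25.1 ± 5.92 FPKM, with Control up to 35.6 FPKM and Ang II from 34.9 FPKM. With such shared stretches the levels of the near copies one by one are uncertain, and misassignment of reads was not tested.

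**Figure D4:**
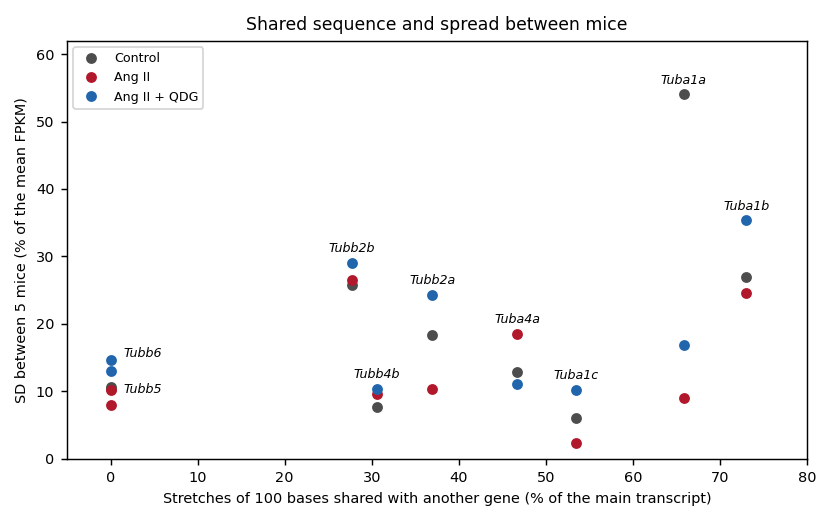
SD between the 5 mice of a group as a percent of the mean FPKM (y axis) against the share of 100-base stretches of the main transcript that occur in another gene (x axis), 1 point for each tubulin and group. Tuba1a is at 54.0% in Control, with 1 mouse at 1.47 FPKM, and at 8.93% and 16.8% in the other groups, while Tubb2b, with 27.7% shared, lies at 25.7% to 29.1% and Tuba1c, with 53.4% shared, at 2.29% to 10.2%.

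Tubb4b-ps1, a processed pseudogene of Tubb4b that was singled out after its values were seen, was at 3.59 ± 0.530 (Control), 4.47 ± 0.661 (Ang II) and 2.83 ± 0.515 FPKM (Ang II + QDG). Its log2 fold change was 0.25 (standard error 0.12, limma adjusted p = 0.217; 0.16 with quantile normalization) for Ang II vs. Control and −0.52 (0.12, adjusted p = 0.0414) for Ang II + QDG vs. Ang II. The second call was lost under quantile normalization, median scaling, the fit of the compared groups alone and the most abundant transcript, and in 12 of 15 fits without 1 mouse. Reads from Tubb4b could count toward it, and this was not tested.

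The reads behind a member's FPKM were 10314 to 22922 per mouse for Tubb4b, 4399 to 8419 for Tuba1c, 3296 to 9636 for Tuba1b, 4481 to 9251 for Tuba4a, 2952 to 5027 for Tubb5 and 1695 to 4482 for Tubb2a. They were fewer for Tubb2b (451 to 2387), Tubb6 (464 to 996) and Tuba1a (216 to 4045). Counting error is thus smallest for Tubb4b.

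Genes of the same pathway were read from lists set by function. The lists were other tubulins, tubulin folding, control of tubulin mRNA, tubulin modification, microtubule nucleation, microtubule binding and severing, and kinesin and dynein motors. Actin and intermediate filaments served as a comparison list. All were chosen with earlier results of these data known, so calls in them are not independent of the data. Of the 133 tested genes of these lists, limma called 10 for Ang II vs. Control (7.52%, 8 higher and 2 lower), beside 5.94% of all genes. It called 4 for Ang II + QDG vs. Ang II (3.01%, all lower), beside 1.81%. The 29 actin and intermediate filament genes held 4 of the 8 higher calls in the first and 1 of the 4 in the second. No excess is read from these shares, since that comparison list is part of the 133. With quantile normalization the second comparison had 2 called, 1 lower and 1 higher (Dynlt3, a log2 fold change of 0.24). The median log2 fold change over these genes was 0.09 in the first and −0.06 in the second. For Ang II + QDG vs. Control, limma called 0 (0.129% of all genes were), and 22 had an unadjusted p under 0.05, where 14.4% of all genes did. No enrichment was tested.

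Among the other tubulins, 8 of 11 genes were not in every file. Tubg1, the γ-tubulin of the nucleating ring, was at 9.81 ± 0.975, 10.7 ± 1.02 and 10.0 ± 0.603 FPKM in the 3 groups (adjusted p = 0.429 for Ang II vs. Control and 0.667 for Ang II + QDG vs. Ang II, limma). Tubd1, the centriolar δ-tubulin, was at 0.965 ± 0.287, 1.43 ± 0.465 and 0.837 ± 0.487 FPKM (adjusted p = 0.393 and 0.284).

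Folding of new tubulin takes the prefoldin and CCT chaperones and the cofactors TBCA to TBCE. Of 21 folding genes, 2 rose for Ang II vs. Control and 1 fell for Ang II + QDG vs. Ang II, and the medians were 0.07 and −0.11 on the log2 scale. Pfdn6, a prefoldin subunit, was at 22.4 ± 2.44 (Control), 33.9 ± 3.76 (Ang II) and 24.6 ± 3.45 FPKM (Ang II + QDG). It rose by 0.58 (standard error 0.10, limma adjusted p = 0.0084) and fell by 0.45 (adjusted p = 0.039), and the Ang II mice overlapped neither group. The rise kept its call in every alternative and with any mouse left out. The fall was lost with the compared groups alone, with the most abundant transcript and in 10 of 15 fits without 1 mouse. Tbce, the cofactor that separates the dimer's partners, rose from 5.88 ± 0.255 to 8.29 ± 0.819 FPKM (0.43, standard error 0.09, adjusted p = 0.0166), a call lost under quantile normalization, median scaling and the most abundant transcript (0.18). The 8 CCT genes listed had adjusted p values from 0.261 to 0.988 in that comparison.

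The list of factors that degrade tubulin mRNA holds Ttc5, Scaper and Cnot11, and limma called 0 of 3 for Ang II vs. Control and 0 of 3 for Ang II + QDG vs. Ang II, where 0 and 1 had an unadjusted p under 0.05 (22.7% and 16.4% of all genes did). Cnot11, the most abundant, was at 11.8 ± 0.563, 13.0 ± 0.703 and 11.0 ± 0.774 FPKM (adjusted p = 0.226 and 0.0794). The Ang II + QDG mice lay below the Ang II mice in Cnot11 without overlap. Of 13 tested genes that modify tubulin, limma called 0 in both comparisons, with 1 and 0 at an unadjusted p under 0.05. Sirt2, a deacetylase, was at 31.1 ± 5.23, 28.6 ± 4.60 and 35.0 ± 5.99 FPKM (adjusted p = 0.705 and 0.377).

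Of 15 nucleation genes, 1 rose for Ang II vs. Control. Tubgcp6, a subunit of the γ-tubulin ring complex, went from 2.94 ± 0.164 to 4.32 ± 0.280 FPKM (a rise of 0.43 on the log2 scale, standard error 0.07, limma adjusted p = 0.0074) and was 3.54 ± 0.355 FPKM in Ang II + QDG. With the most abundant transcript the call was lost (0.21). Of 21 binding and severing genes, 1 fell. Katna1, the severing subunit of katanin, went from 10.3 ± 0.887 to 8.55 ± 0.339 FPKM (fell by 0.25, adjusted p = 0.0443), and the call was lost with the compared groups alone, with the most abundant transcript (−0.85, adjusted p = 0.563) and in 12 of 15 fits without 1 mouse. The binding and severing list gave 0 calls by limma for Ang II + QDG vs. Ang II, with 1 at an unadjusted p under 0.05.

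Among 29 motor genes, 1 rose and 1 fell for Ang II vs. Control and 2 fell for Ang II + QDG vs. Ang II. Klc4, a kinesin light chain, rose from 29.7 ± 3.96 to 38.9 ± 3.24 FPKM (0.38, limma adjusted p = 0.031). Dynlt3, a dynein light chain, fell from 48.7 ± 1.75 to 42.4 ± 2.38 FPKM (by 0.20, adjusted p = 0.0312). Dync1i2, an intermediate chain, fell from 34.5 ± 2.30 FPKM in Ang II to 28.0 ± 2.54 FPKM in Ang II + QDG (by 0.29, adjusted p = 0.0384), and Dynll1, a light chain, from 22.5 ± 2.20 to 16.0 ± 1.85 FPKM (by 0.47, adjusted p = 0.0409). Each of these 4 calls was lost in 6 or more of 15 fits without 1 mouse and with the compared groups alone. Those of Klc4, Dync1i2 and Dynll1 were also lost under quantile normalization and median scaling, those of Dync1i2 and Dynll1 with the most abundant transcript, those of Dynlt3 and Dync1i2 without a trend, and that of Dync1i2 without mitochondrial transcripts.

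The actin and intermediate filament list, the comparison list for the rest of the cytoskeleton, had 4 genes higher of 29 for Ang II vs. Control and 1 lower for Ang II + QDG vs. Ang II, with medians of 0.19 and −0.15. Flna, the actin crosslinker filamin A, rose from 10.6 ± 1.71 to 20.7 ± 2.35 FPKM (0.91, standard error 0.12, limma adjusted p = 0.0039), a call kept in every alternative, though the value was 0.53 with the most abundant transcript. Lmnb2, a nuclear lamin, rose from 2.97 ± 0.297 to 5.30 ± 0.875 FPKM (0.66, adjusted p = 0.0074) and was 3.48 ± 0.523 FPKM in Ang II + QDG (fell by 0.49, adjusted p = 0.0401). Krt7, a simple epithelial keratin, rose from 13.4 ± 3.10 to 24.2 ± 4.34 FPKM (0.83, adjusted p = 0.015). Tpm1, a tropomyosin, rose from 22.4 ± 3.97 to 31.6 ± 4.61 FPKM (0.48, adjusted p = 0.0376). With the most abundant transcript the calls of Lmnb2, Krt7 and Tpm1 were lost (0.51 and −0.94 for Lmnb2, 0.35 for Krt7, 0.18 for Tpm1). The rise of Tpm1 was also lost under quantile normalization and median scaling, with the compared groups alone and in 6 of 15 fits without 1 mouse. The fall of Lmnb2 was also lost under both scalings, without mitochondrial transcripts, with the compared groups alone and in 10 of 15 fits without 1 mouse.

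Genes most like Tuba1c were sought among 7270 other genes with a mean of at least 5 FPKM, by the correlation of log2 values over 15 mice. The Ang II mice stand apart in Tuba1c, so such a correlation follows that gap, and it is given with no p. The highest were Lrrc59 (Pearson's r 0.929, Spearman's rho 0.868), Klhl2 (0.910, 0.882), Prelid3b (0.905, 0.936), Eif3b (0.904, 0.846) and Ywhah (0.890, 0.821). Tubb4b had a higher r than any of the 7270, at 0.946, with a rho of 0.911. Tubb2a had an r of 0.855, Tubb6 0.762, Tuba4a 0.677, Tubb2b 0.621, Tubb5 0.438, Tuba1b 0.435 and Tuba1a 0.306. After each group's mean was subtracted, the highest were Mrps23 (r 0.825, rho 0.796), Lonp2 (0.820, 0.493), Mri1 (0.818, 0.732), Usp15 (0.801, 0.775) and Zbtb33 (0.788, 0.525). Tubb4b then had an r of 0.679 and a rho of 0.743, which would rank 51 against the 7270 genes. Tubb6 had 0.560 and 0.264, Tubb5 0.536 and 0.661, Tubb2a 0.464 and 0.400, and Tuba1b 0.386 and 0.536. Tuba4a was at −0.02 and −0.21, Tubb2b at −0.03 and 0.06, and Tuba1a at −0.13 and −0.03.

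Markers of kidney cell types are given beside the tubulins, since tubulin isotypes differ between cell types. Podocyte markers summed to 80.5 to 88.7 (Control), 106 to 134 (Ang II) and 106 to 130 FPKM (Ang II + QDG), and 2 of 5 tested rose for Ang II vs. Control. Fibroblast and mural markers summed to 65.4 to 90.2, 70.3 to 167 and 95.0 to 116 FPKM, with 2 of 10 higher for Ang II vs. Control. In Ang II + QDG vs. Ang II limma called 0 genes of either list, with 1 of each at an unadjusted p under 0.05. Endothelial markers overlapped, at 131 to 198, 162 to 195 and 148 to 200 FPKM, with 1 of 8 higher for Ang II vs. Control. Leukocyte markers summed to 132 to 216, 104 to 146 and 104 to 309 FPKM, with 0 of 6 called by limma for Ang II vs. Control and 1 at an unadjusted p under 0.05. Injured tubule markers summed to 163 to 451, 178 to 332 and 161 to 254 FPKM, and Havcr1, Krt20, Sox9 and Cd44 were not in every file. Erythroid markers, which report blood in the kidney, summed to 545 to 1362, 1115 to 1943 and 1557 to 2818 FPKM, with 0 of 5 called by limma for Ang II vs. Control and 3 at an unadjusted p under 0.05. For Ang II + QDG vs. Control, 1 of them was called and 5 of 5 had an unadjusted p under 0.05. That gene, Hba-a1, an α-globin, was at 207 ± 36.5 (Control), 330.3 ± 56.0 (Ang II) and 480.04 ± 148 FPKM (Ang II + QDG), a log2 fold change of 1.17 over Control (limma adjusted p = 0.0257), and was 1 of the 16 genes (0.129% of those tested) called there. The call was lost with the compared groups alone and in 5 of 15 fits without 1 mouse (Control mouse 3 or 4, or Ang II + QDG mouse 1, 2 or 3). Distal nephron and collecting duct markers summed to 1377 to 1840, 1180 to 1681 and 1545 to 2082 FPKM, with 1 of 10 higher for Ang II vs. Control. Of 20 mitosis genes, 18 were not in every file, among them Mki67 and Top2a. Proximal tubule markers summed to 4609 to 5585, 4767 to 5985 and 4835 to 5855 FPKM, with 0 of 10 called by limma for Ang II vs. Control and 4 at an unadjusted p under 0.05. For Ang II + QDG vs. Ang II limma called 0 genes of any of these lists. The estimate there was positive for 8 of 10 distal nephron and collecting duct markers (3 at an unadjusted p under 0.05). It was also positive for 6 of 6 leukocyte (1), 5 of 5 erythroid (2) and 3 of 4 injured tubule markers (1). The counts were 5 of 10 for proximal tubule (3), 4 of 8 for endothelial (0) and 3 of 5 for podocyte markers (1). For fibroblast and mural markers it was 5 of 10 (1). The 9 tubulins were negative, and 46.3% of all genes positive. For Ang II vs. Control the 9 tubulins and 64.8% of all genes were positive. Positive there were 8 of 10 fibroblast and mural, 7 of 8 endothelial, 4 of 5 podocyte and 5 of 5 erythroid markers. So were 5 of 10 distal nephron and collecting duct and 4 of 10 proximal tubule markers. For injured tubule it was 2 of 4 and for leukocytes 0 of 6. The part of these cell types in the tubulin differences was not tested.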

How the data were processed

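RNA from 15 mouse kidneys was sequenced after ribosomal RNA depletion per the labels, on an Illumina HiSeq in paired ends, and the methods also describe a poly(A) step. The values that the authors deposited for each transcript were taken as FPKM: multiplied by transcript length, 98.4% to 98.7% of those under 200 reads were whole numbers of a read's worth in that mouse (tolerance 0.05). The submitters' processing notes name mm10 and limma. The aligner, the counter and any use of strand are not given in the sources used here. Of 40054 transcripts in all files, 28863 matched GENCODE release M21 and were summed per gene, and 11191 assembled or unmatched ones were left out. Genes that reached 1 FPKM in 5 or more mice were tested on log2(FPKM + 1) with limma 3.58.1 (R 4.3.3), with a trend, in 1 model of 15 mice (12 residual degrees of freedom) and Benjamini-Hochberg adjustment over all 12366 genes, two-sided. A fold change on this scale understates that of low genes. The code was tested on simulated data with known changes.

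Members and gene lists were chosen with earlier results of these data known. Named were all members, other tubulins past the filter, up to 4 called genes per list by unadjusted p (otherwise the most abundant) and the 5 genes most like Tuba1c by each measure. Sequences and shared stretches of 100 bases came from the GENCODE transcripts, aligned with Biopython 1.88. The end of the coding sequence of Tuba1a and Tuba1b is not reported here. Columns of fold changes or p-values by the authors were not used. Alternatives changed the pseudocount (0.1 and 0.01), the filter (none and 5 FPKM), the scaling, the transcripts summed, the mice in the fit and the trend, and left out each mouse. The number of reads limits precision, and replicates were numbered in accession order.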

Additional observations from a re-analysis of the deposited data

Results flagged for a closer look

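A mouse far from the other 4 of its group was looked for in 78 sets of 5 values, the members and the other named genes in each group, and 6 sets held one. Chance flags about 1 in 20 sets, so some of these would be found with no difference at all. Among the members, Ang II mouse 5 had 33.73 FPKM of Tuba1b, where the nearest Ang II mouse had 62.57 FPKM and the highest 69.73 FPKM. The highest Ang II + QDG mouse had 37.9 FPKM of Tuba4a, where the next had 31.51 FPKM. Tuba1a in Control mouse 2 was not among the 6, since the other Control mice themselves spread from 14.24 to 21.5 FPKM. Among the other genes, the highest Ang II + QDG mouse had 30.55 FPKM of Pfdn6 (next 24.06 FPKM) and the highest Ang II mouse had 44.61 FPKM of Klc4 (next 38.05 FPKM). Krt7 was lowest in a Control mouse at 7.982 FPKM (next 13.38 FPKM) and highest in an Ang II mouse at 31.68 FPKM (next 23.78 FPKM).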

How the results depend on the processing

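Ang II vs. Control called 735 genes (612 higher, 123 lower), but 472 with median scaling (201 higher, 271 lower), 493 with quantile normalization (227 and 266), 456 with the compared groups alone and 353 with the most abundant transcript. Ang II + QDG vs. Ang II called 224 (65 higher, 159 lower), and 58 with the compared groups alone. Its split was 97 and 97 under quantile normalization, and 72 and 112 under median scaling. Ang II + QDG vs. Control called 16, but 80 with all listed transcripts, 4 with the compared groups alone and 6 with the most abundant transcript. Of the pathway genes, counted with the actin and intermediate filament list, Ang II vs. Control called 10. It called 6 with the compared groups alone and 4 with the most abundant transcript. Ang II + QDG vs. Ang II called 4, but 2 with quantile normalization (1 higher, 1 lower), 1 with median scaling, 2 without mitochondrial transcripts and 0 with the compared groups alone or the most abundant transcript. Ang II + QDG vs. Control called 0, and 1 with all listed transcripts. Leaving out each mouse gave 338 (without Control mouse 1) to 797 genes (without Control mouse 2), 53 (without Ang II mouse 2) to 249, and 0 (without Control mouse 4) to 110 (without Control mouse 2), and for the pathway genes 6 to 13, 0 to 4 and 0 to 1. Tuba1c in Ang II vs. Control came to 0.28 under quantile normalization or median scaling, and 0.34 to 0.39 without each mouse. The cause of these shifts was not tested. No paired analysis was possible because the labels give no replicate number shared between groups. Of the values for single members, 699 moved by less than the SD between mice (log2 scale, mean of both groups compared) and 3 by more. That SD is wide for Tuba1a because of Control mouse 2, so the 699 include its move from 1.13 to 0.56 without that mouse. Of the values for other named genes, 1211 stayed on their side of the threshold, 126 lost a call, 3 gained one and none that was called reversed.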
